A study of Rattus norvegicus with 9 samples.

Results

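A set of 10 nuclear genes was followed across 9 libraries of rat bone marrow-derived dendritic cells: Tfam, Tfb1m, Tfb2m, Polrmt, Polg, Twnk, Lrpprc, Slirp, Nrf1 and Fastkd2. Their proteins copy, package or transcribe mitochondrial DNA or act on its RNA, except NRF1, a nuclear factor that activates many genes for mitochondrial proteins. The genes were chosen by name, and all 10 were found among the 20442 genes of the deposited table. The cells carried the label WT and were primary cells grown with 10% serum, 20 ng/mL GM-CSF and 20 ng/mL IL-4, which all 3 groups share. Cells of the LPS+EVs group received bacterial lipopolysaccharide (LPS) together with extracellular vesicles from ASCs, cells of the LPS group received LPS, and Control cells received neither, with 3 libraries in each group. The treatment protocol gives LPS at 1 µg/mL, a further agent at 50 ng/mL that it does not name, and 24 h; the dose of vesicles, the rats behind each culture and the purity of the cells are not given in the sources used here. The labels call the libraries biological replicates without saying whether they came from separate animals, so the p-values below measure only the spread between these libraries. In RNA from a whole culture, fewer cells of a type and less RNA per cell cannot be told apart.

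Mitochondrial DNA is a small circle that encodes core subunits of the respiratory chain together with the ribosomal and transfer RNAs that translate them, and every protein that copies or reads it is made from nuclear genes. TFAM coats and compacts the circle and bends its promoters, TFB2M opens them, and POLRMT is the RNA polymerase. POLG and the Twinkle helicase (gene Twnk) replicate the DNA, and the LRPPRC-SLIRP complex binds the finished messenger RNAs, keeps them stable and aids their polyadenylation. In activated dendritic cells and macrophages LPS is known to shift energy supply from respiration to glycolysis, which makes the supply of mitochondrial transcripts of interest in such cells. The roles given here and below are known mainly from human and mouse cells.

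The start regions of 5 of these genes are shown because they differ in whether they hold a core of the motif bound by Ets factors such as GABP, an activator of nuclear genes for mitochondrial proteins whose subunit gene Gabpa is described below. Each line gives the 250 bases before the annotated start from the RefSeq promoter table (build GRCr8), 5′ to 3′ on the gene's strand, with CCGGAAG or its complement CTTCCGG in capitals. The windows lie on the plus strand at chr20:17355123-17355372 for Tfam, chr7:10609946-10610195 for Polrmt, chr1:253817314-253817563 for Twnk, chr6:15612388-15612637 for Lrpprc and chr6:112819434-112819683 for Slirp.
Tfam: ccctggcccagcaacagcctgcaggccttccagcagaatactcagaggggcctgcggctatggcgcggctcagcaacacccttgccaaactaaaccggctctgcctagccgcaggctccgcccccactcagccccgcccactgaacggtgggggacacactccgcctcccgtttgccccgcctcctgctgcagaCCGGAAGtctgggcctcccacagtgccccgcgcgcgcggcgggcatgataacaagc
Polrmt: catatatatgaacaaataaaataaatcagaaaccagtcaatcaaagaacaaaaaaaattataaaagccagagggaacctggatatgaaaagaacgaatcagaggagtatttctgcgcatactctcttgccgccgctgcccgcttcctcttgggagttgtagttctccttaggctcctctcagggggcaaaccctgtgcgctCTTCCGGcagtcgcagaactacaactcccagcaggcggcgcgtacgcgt
Twnk: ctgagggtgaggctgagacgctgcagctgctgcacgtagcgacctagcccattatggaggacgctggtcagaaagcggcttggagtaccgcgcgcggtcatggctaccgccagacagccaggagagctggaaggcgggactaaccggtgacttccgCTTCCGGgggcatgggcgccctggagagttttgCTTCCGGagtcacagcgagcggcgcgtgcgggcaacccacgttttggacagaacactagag
Lrpprc: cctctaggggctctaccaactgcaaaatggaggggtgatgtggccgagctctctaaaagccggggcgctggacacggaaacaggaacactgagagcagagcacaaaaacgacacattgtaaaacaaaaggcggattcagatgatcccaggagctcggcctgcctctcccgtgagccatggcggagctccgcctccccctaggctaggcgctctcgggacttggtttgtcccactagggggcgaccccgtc
Slirp: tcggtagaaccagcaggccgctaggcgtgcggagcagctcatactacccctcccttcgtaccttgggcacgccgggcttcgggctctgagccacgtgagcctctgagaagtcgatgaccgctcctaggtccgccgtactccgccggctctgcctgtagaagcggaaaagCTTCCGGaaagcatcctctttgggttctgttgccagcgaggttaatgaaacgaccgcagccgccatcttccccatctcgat
The motif CCGGAAG, searched on both strands in the 300 bases around each start, was found for 5 of the 10 genes (Tfam, Polrmt, Polg, Twnk and Slirp), against 8.75% of 33469 windows of the same length in the promoter table. Counted from the start, it lay at -56 to -50 for Tfam, -49 to -43 for Polrmt and -121 to -115 for Polg. Twnk had it at -94 to -88 and at -61 to -55, and Slirp at -81 to -75 and, beyond the printed window, at 17 to 23. No match was found for Lrpprc, Tfb1m, Tfb2m, Nrf1 or Fastkd2. The motif made of GCGC, any 2 bases and GCGC again, the core of the site bound by NRF1, was in none of the 10 genes' windows and in 5.58% of all windows. The 10 genes had 11 windows, so a count of genes and a share of windows are not the same unit. The shares cover all windows of the promoter table, not only those of tested genes. A match of letters describes the sequence only, and binding was not measured.

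Between 32148519 and 39407116 reads per library were assigned to genes, a 1.23-fold range, and the 10 genes had between 86 reads (Fastkd2) and 4655 reads (Lrpprc) in a library. An FPKM value is a read count divided by the length of the gene and by the library's total, so levels of genes can be compared per length. Between libraries it rests on that total; median-of-ratios factors computed on the deposited values were 0.8773 to 0.999 in LPS+EVs, 0.8635 to 1.0081 in LPS and 1.1025 to 1.126 in Control. The libraries numbered 2 stood apart within their groups on the second principal component, which held 21% of the variance, and the class II gene RT1-Bb showed the same split, at 14.1, 788 and 40.8 FPKM in LPS+EVs, 8.38, 728 and 25.5 FPKM in LPS, and 37.8, 1003 and 104 FPKM in Control (replicates 1, 2 and 3). For the 10 genes, a call that changes with the libraries numbered 1 and 3 alone is therefore given below. Itgax (CD11c), a dendritic cell marker, was at 29.8 to 52.0 FPKM in every library. Flt3, Clec9a and Xcr1 of the same marker list stayed under 0.5 FPKM throughout. Others of that list were present in every library: Zbtb46 at 1.41 to 3.36 FPKM, Irf4 at 9.41 to 32.7 FPKM and Irf8 at 8.03 to 45.5 FPKM. The 8 macrophage and monocyte markers summed to 1543 to 1949 FPKM in LPS+EVs, 1283 to 1751 FPKM in LPS and 1195 to 1287 FPKM in Control, but the list did not move as one: 2 rose (Cd14 and Cd68) and 4 fell in each comparison with Control, and Mrc1 was at 9.49 to 9.98 FPKM in LPS+EVs, 8.70 to 10.2 FPKM in LPS and 114 to 192 FPKM in Control. With the libraries numbered 1 and 3 alone, 1 of these markers rose and 5 fell in LPS, and Cd68 did not pass there (limma adjusted p = 0.108). The 14 cell division genes summed to 63.5 to 79.8 FPKM in LPS+EVs, 66.4 to 119 FPKM in LPS and 602 to 692 FPKM in Control. For the 4 erythroid markers the sums were 3.77 to 8.91 FPKM in LPS+EVs, 4.94 to 9.70 FPKM in LPS and 54.2 to 437 FPKM in Control, and for the 7 neutrophil markers 116 to 269 FPKM in LPS+EVs, 98.9 to 242 FPKM in LPS and 32.4 to 267 FPKM in Control. Most of the neutrophil sum in treated cells was Lcn2, at 114 to 252 FPKM in LPS+EVs, 97.6 to 240 FPKM in LPS and at most 10.3 FPKM in Control. Of the other neutrophil markers tested, 2 fell in LPS+EVs (Cxcr2 and S100a8) and 3 in LPS (with Csf3r), S100a8 being at 0.835 to 8.87 FPKM in LPS+EVs, 0.386 to 2.78 FPKM in LPS and 6.75 to 187 FPKM in Control. Stromal markers (6 genes) summed to 123 to 806 FPKM in LPS+EVs, 84.7 to 674 FPKM in LPS and 142 to 450 FPKM in Control, and the T, NK, B and mast cell markers in the table to less than 1 FPKM. Each stromal marker was lowest in the library numbered 2 of its group. Dcn, for example, was at 36.7, 4.77 and 32.5 FPKM in LPS+EVs and 77.5, 4.53 and 58.7 FPKM in LPS. In Control it was at 44.1, 5.36 and 58.0 FPKM. The part that division or cell makeup has in the differences of the 10 genes was not tested.

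Against Control cells, most of the 10 genes were lower after LPS, with or without vesicles, and none was higher. In LPS+EVs cells 7 of the 10 fell (Lrpprc, Fastkd2, Tfb2m, Tfam, Polrmt, Tfb1m and Slirp), where 30.8% of all 11141 tested genes fell and 13.5% rose. In LPS cells 6 fell, the same list without Fastkd2, where 28.7% of tested genes fell and 12.3% rose. Tfb1m was tested only through its Control libraries, as described below, and without it 6 of 9 genes fell in LPS+EVs and 5 of 9 in LPS. The median log2 difference of the 10 genes was -0.80 for LPS+EVs and -0.68 for LPS, against -0.19 for all tested genes in both comparisons. The comparisons share the Control libraries, so their likeness is not independent evidence. Values were compared on log2(FPKM + 1) with limma and called at an adjusted p under 0.05 over all tested genes. When libraries were rescaled by median-of-ratios factors, which brings the median of all genes to 0, 5 of the 10 genes fell in LPS+EVs (22.3% of all genes) and 3 in LPS (20.8%). Among the 11115 genes that passed the filter after rescaling the split for LPS+EVs was then 2081 higher and 2484 lower, against 1505 higher and 3436 lower as deposited, and for LPS 1895 higher and 2307 lower, against 1368 higher and 3201 lower as deposited.

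**Figure D1:**
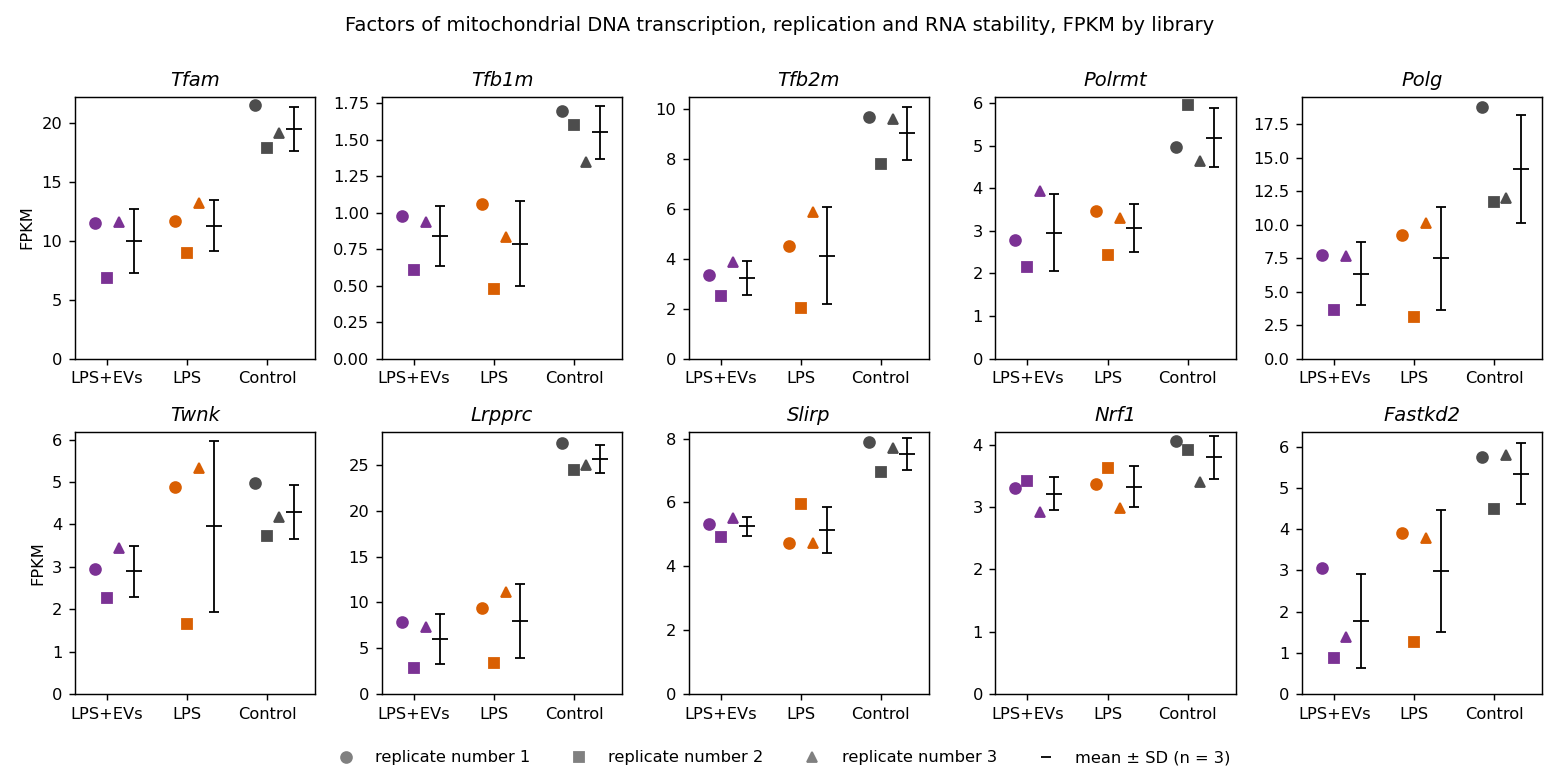
Expression of the 10 genes in each library, in FPKM; each point is 1 library, its shape gives the replicate number, and bars give the mean and SD of each group of 3. Lrpprc and Tfam are highest in Control, and the library numbered 2 is the lowest of its group in both LPS+EVs and LPS for 8 of the 10 genes.

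Tfam, the packaging protein and promoter activator, was at 11.5, 6.84 and 11.6 FPKM in LPS+EVs, 11.7, 8.93 and 13.2 FPKM in LPS, and 21.5, 17.9 and 19.1 FPKM in Control. Every LPS+EVs and every LPS library lay below every Control library. Means were 9.97 ± 2.71 FPKM in LPS+EVs, 11.3 ± 2.16 FPKM in LPS and 19.5 ± 1.84 FPKM in Control (SD, n = 3 each). The log2 difference from Control was -0.93 (95% interval -1.42 to -0.45, limma adjusted p = 0.00819) in LPS+EVs and -0.75 (-1.24 to -0.27, adjusted p = 0.0220) in LPS. The LPS call was lost without Control replicate 1 (adjusted p = 0.0808), Control replicate 3 (0.0603) or LPS replicate 2 (0.0556), whereas the LPS+EVs call held under all 17 alternatives.

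Tfb2m, the factor that opens the promoter, was at 3.33, 2.52 and 3.89 FPKM in LPS+EVs, 4.49, 2.03 and 5.86 FPKM in LPS, and 9.70, 7.80 and 9.60 FPKM in Control. Both LPS-treated groups lay wholly below Control, and LPS replicate 2 held the lowest value of the 9. Against Control the log2 difference was -1.25 (-1.90 to -0.60, limma adjusted p = 0.00811) in LPS+EVs and -1.04 (-1.69 to -0.40, adjusted p = 0.0190) in LPS. The LPS call was lost without Control replicate 1 (adjusted p = 0.0663) or Control replicate 3 (0.0624), and the LPS+EVs call held under all 17 alternatives.

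Polrmt, the mitochondrial RNA polymerase, was at 2.78, 2.15 and 3.93 FPKM in LPS+EVs, 3.47, 2.43 and 3.31 FPKM in LPS, and 4.98, 5.96 and 4.63 FPKM in Control. The groups did not overlap with Control; LPS+EVs replicate 3 came nearest to Control. Against Control, Polrmt had a log2 difference of -0.66 (-1.11 to -0.22, limma adjusted p = 0.0238) in LPS+EVs and -0.61 (-1.05 to -0.16, adjusted p = 0.0360) in LPS. These calls were near the threshold. The LPS call was lost without any 1 of the Control or LPS libraries or LPS+EVs replicate 1 (adjusted p = 0.0527 to 0.117), with rescaling (0.0641), and with the libraries numbered 1 and 3 alone (log2 -0.40, adjusted p = 0.0996). The LPS+EVs call was lost without Control replicate 1 or 2 or LPS+EVs replicate 1 or 2 (0.0626 to 0.0833) and with numbers 1 and 3 alone (-0.43, 0.0810).

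Tfb1m, a methyltransferase that modifies the small mitochondrial ribosomal RNA, was the least expressed of the 10 genes in every group. It was at 0.975, 0.605 and 0.939 FPKM in LPS+EVs, 1.06, 0.476 and 0.830 FPKM in LPS, and 1.70, 1.60 and 1.35 FPKM in Control. Only the Control libraries and LPS replicate 1 reached the 1 FPKM that a tested gene needs in 3 libraries, so the gene entered the test through the group where it was high. Set against Control, the log2 difference was -0.47 (-0.85 to -0.10, limma adjusted p = 0.0457) in LPS+EVs and -0.52 (-0.90 to -0.14, adjusted p = 0.0345) in LPS; with 1 FPKM added, these understate the change of so low a gene, and with 0.1 FPKM added the difference was -0.83 in LPS+EVs (adjusted p = 0.0719) and -0.95 in LPS (0.0503). The LPS call was lost without any Control library or LPS replicate 2 or 3 (0.0587 to 0.129), the LPS+EVs call without any Control or LPS+EVs library or LPS replicate 3 (0.0591 to 0.155), and both with numbers 1 and 3 alone (0.109 for LPS+EVs and 0.106 for LPS) and with rescaling (0.0876 for LPS+EVs and 0.0566 for LPS). Tfb1m overlaps Tiam2 in the RefSeq annotation.

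The replication genes Polg and Twnk did not pass the test in either comparison. Polg, the mitochondrial DNA polymerase, was at 7.70, 3.63 and 7.68 FPKM in LPS+EVs, 9.26, 3.07 and 10.1 FPKM in LPS, and 18.8, 11.7 and 12.03 FPKM in Control. All treated libraries were below all Control libraries, but the spread within groups was wide. For Polg the log2 difference from Control was -1.07 (-2.02 to -0.13, limma adjusted p = 0.0636) in LPS+EVs and -0.94 (-1.88 to 0.01, adjusted p = 0.102) in LPS. Blocking on replicate number brought both past the threshold (adjusted p = 0.00593 in LPS+EVs and 0.0116 in LPS). The LPS+EVs comparison also passed with numbers 1 and 3 alone (0.0128), without LPS replicate 2 (0.0125) and without the LPS libraries (0.0214). Leaving out only LPS libraries kept the difference at -1.07, since they enter this comparison through the shared estimate of the spread. Polg overlaps Fanci, a Fanconi anaemia DNA repair gene, in the RefSeq annotation; Fanci was at 0.375, 0.376 and 0.715 FPKM in LPS+EVs, 0.659, 0.649 and 0.715 FPKM in LPS, and 8.95, 8.58 and 8.99 FPKM in Control. How the authors' counting used strand is not given in the sources used here, and whether Fanci reads entered the Polg values was not tested.

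Twnk, the Twinkle helicase, was at 2.96, 2.27 and 3.44 FPKM in LPS+EVs, 4.87, 1.65 and 5.34 FPKM in LPS, and 4.99, 3.74 and 4.17 FPKM in Control. All 3 LPS+EVs libraries were below Control, while LPS replicates 1 and 3 lay within or above the Control range and LPS replicate 2 far below it. For Twnk the log2 difference from Control was -0.45 (-1.17 to 0.27, limma adjusted p = 0.275) in LPS+EVs and -0.19 (-0.91 to 0.53, adjusted p = 0.654) in LPS. The LPS value turned to 0.21 without LPS replicate 2 and to 0.13 with numbers 1 and 3 alone, and the LPS+EVs comparison passed without LPS replicate 2 (adjusted p = 0.0413). The LPS+EVs difference itself stayed at -0.45 there, since an LPS library enters that comparison through the shared estimate of the spread. Twnk overlaps Mrpl43, a mitochondrial ribosomal protein gene with 48.0, 56.2 and 49.1 FPKM in LPS+EVs, 39.5, 50.3 and 30.6 FPKM in LPS, and 37.3, 45.9 and 32.1 FPKM in Control, so shared reads cannot be set apart.

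Lrpprc, the larger partner of the complex that protects mitochondrial messenger RNAs, had the lowest log2 difference of the 10 genes against Control in both LPS+EVs and LPS. It was at 7.89, 2.88 and 7.30 FPKM in LPS+EVs, 9.39, 3.41 and 11.2 FPKM in LPS, and 27.4, 24.5 and 25.04 FPKM in Control. The highest treated library had less than the lowest Control library, with a wide gap between them. Means were 6.02 ± 2.74 FPKM in LPS+EVs, 8.0 ± 4.07 FPKM in LPS and 25.6 ± 1.54 FPKM in Control (SD, n = 3 each). The log2 difference from Control was -2.01 (SE 0.42, -2.96 to -1.06, limma adjusted p = 0.00525) in LPS+EVs and -1.69 (SE 0.42, -2.64 to -0.74, adjusted p = 0.0123) in LPS. Both calls held under all 17 alternatives, at adjusted p-values up to 0.0228 in LPS+EVs and 0.0453 in LPS. With numbers 1 and 3 alone the difference was -1.66 in LPS+EVs and -1.27 in LPS.

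Slirp, the small RNA-binding partner that stabilises LRPPRC, had a smaller difference from Control and was the most even of the 3 RNA stability genes within treated groups. It was at 5.32, 4.93 and 5.51 FPKM in LPS+EVs, 4.73, 5.96 and 4.73 FPKM in LPS, and 7.90, 6.96 and 7.72 FPKM in Control. No treated library reached the lowest Control library. The log2 difference from Control was -0.45 (SE 0.13, -0.74 to -0.15, limma adjusted p = 0.0215) in LPS+EVs and -0.48 (SE 0.13, -0.77 to -0.19, adjusted p = 0.0179) in LPS. With rescaling the difference was -0.25 in LPS+EVs (adjusted p = 0.237) and -0.29 in LPS (0.183), so these calls rest on the deposited scaling. They were also lost without Control replicate 1 or 3 or LPS replicate 1 in LPS (0.0612 to 0.0704), and without Control replicate 1 or 3 or LPS+EVs replicate 1 or 2 in LPS+EVs (0.0525 to 0.0787). Slirp overlaps Alkbh1 and Snw1 in the RefSeq annotation. Mean Snw1 was 31.0 FPKM in LPS+EVs, 29.7 FPKM in LPS and 30.1 FPKM in Control, well above Slirp. Mean Alkbh1 was 5.09 FPKM in LPS+EVs, 6.03 FPKM in LPS and 5.19 FPKM in Control. Whether reads of these genes entered the Slirp values was not tested.

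The ratio of Slirp to Lrpprc, taken as FPKM over FPKM in each library, was 0.675, 1.71 and 0.754 in LPS+EVs, 0.504, 1.75 and 0.422 in LPS, and 0.289, 0.284 and 0.308 in Control. Control libraries were nearly alike, and every treated library was above them, the libraries numbered 2 most of all. The mean log2 ratio was higher than in Control by 1.70 in LPS+EVs and by 1.29 in LPS, with an exact two-sided permutation p of 0.1 for each, the smallest that 3 against 3 libraries can give (0.15 adjusted over 3 comparisons). LPS+EVs exceeded LPS by 0.41 (exact permutation p = 0.6, adjusted 0.6).

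Fastkd2, a mitochondrial RNA-binding protein needed for the large ribosomal RNA and the assembly of the mitochondrial ribosome, was at 3.06, 0.875 and 1.39 FPKM in LPS+EVs, 3.92, 1.27 and 3.78 FPKM in LPS, and 5.76, 4.49 and 5.79 FPKM in Control. Both treated groups lay below Control, and in LPS+EVs replicates 2 and 3 lay far below replicate 1. Fastkd2 had a log2 difference from Control of -1.26 (-2.08 to -0.45, limma adjusted p = 0.0202) in LPS+EVs and -0.75 (-1.56 to 0.07, adjusted p = 0.126) in LPS. Blocking on replicate number brought the LPS difference past the threshold (adjusted p = 0.0211). Fastkd2 overlaps Mdh1b in the RefSeq annotation. The LPS+EVs call was lost without Control replicate 1 or 3 or LPS+EVs replicate 2 or 3 (0.0559 to 0.0676). That the gene passed in one comparison and not in the other does not show that the groups differ, since LPS+EVs against LPS gave -0.52 (-1.33 to 0.30).

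Nrf1, the nuclear factor that activates many genes for mitochondrial proteins, differed least from Control. It was at 3.31, 3.43 and 2.92 FPKM in LPS+EVs, 3.37, 3.64 and 2.99 FPKM in LPS, and 4.07, 3.92 and 3.41 FPKM in Control. The treated ranges overlapped the Control range. Nrf1 had a log2 difference from Control of -0.19 (-0.48 to 0.11, limma adjusted p = 0.273) in LPS+EVs and -0.15 (-0.44 to 0.14, adjusted p = 0.381) in LPS, and under rescaling the LPS value was 0.02.

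**Figure D2:**
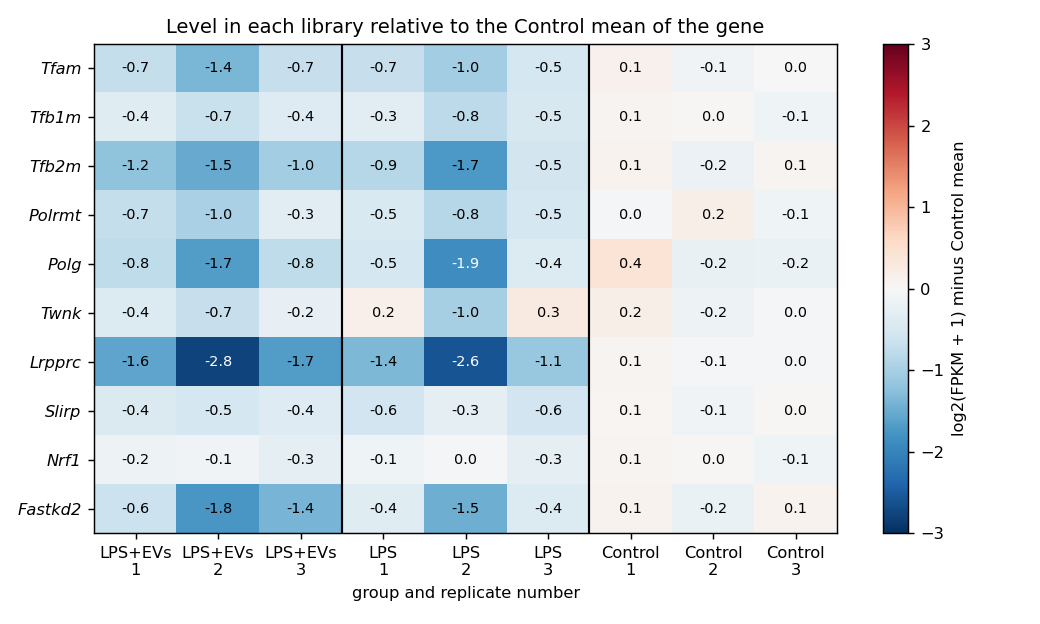
Heat map of log2(FPKM + 1) in each library minus the mean of the 3 Control libraries, for the 10 genes (down) and the 9 libraries (across, grouped as LPS+EVs, LPS and Control). The lowest cells are those of Lrpprc in the treated libraries numbered 2, while Nrf1 and Slirp are nearly even across the libraries of each group.

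The level order of the 10 genes also differed by group. In Control cells Lrpprc (25.6 ± 1.54 FPKM) stood above Tfam (19.5 ± 1.84 FPKM) with no shared range, whereas in LPS+EVs and LPS cells Tfam had the highest mean and overlapped the next gene. In LPS+EVs the order of means was Tfam, Polg, Lrpprc, Slirp, Tfb2m, Nrf1, Polrmt, Twnk, Fastkd2 and Tfb1m, and only Slirp and Tfb2m among neighbours had separate ranges. In LPS it was Tfam, Lrpprc, Polg, Slirp, Tfb2m, Twnk, Nrf1, Polrmt, Fastkd2 and Tfb1m, with only Fastkd2 and Tfb1m separate. In Control it was Lrpprc, Tfam, Polg, Tfb2m, Slirp, Fastkd2, Polrmt, Twnk, Nrf1 and Tfb1m, with separate ranges for Lrpprc and Tfam, Polg and Tfb2m, Slirp and Fastkd2, and Nrf1 and Tfb1m. These orders compare FPKM levels, which are per length of gene.

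For 8 of the 10 genes, all but Slirp and Nrf1, the library numbered 2 was the lowest of its group in both LPS+EVs and LPS, which held for 42.3% of all tested genes. In Control the library numbered 2 was the lowest for 7 of the 10, against 41.4% of tested genes. With the libraries numbered 1 and 3 alone, 6 genes fell in LPS+EVs (Tfam, Tfb2m, Polg, Lrpprc, Slirp and Fastkd2) and 4 in LPS (Tfam, Tfb2m, Lrpprc and Slirp), where 29.9% of the 10691 genes tested in that fit fell in LPS+EVs and 26.8% in LPS. With a block on replicate number, 8 of the 10 fell in LPS+EVs and 8 in LPS, where 37.4% of tested genes fell in LPS+EVs and 35.5% in LPS. Groups did not overlap, with Control above, for 9 of the 10 genes in LPS+EVs and for 8 of the 10 in LPS, where 40.6% of tested genes were lower without overlap in LPS+EVs and 37.6% in LPS. Within same-numbered pairs, all 10 were below Control in 3 of 3 pairs in LPS+EVs and 9 of the 10 (all but Twnk) in LPS, against 47.7% of tested genes in LPS+EVs and 45.8% in LPS.

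**Figure D3:**
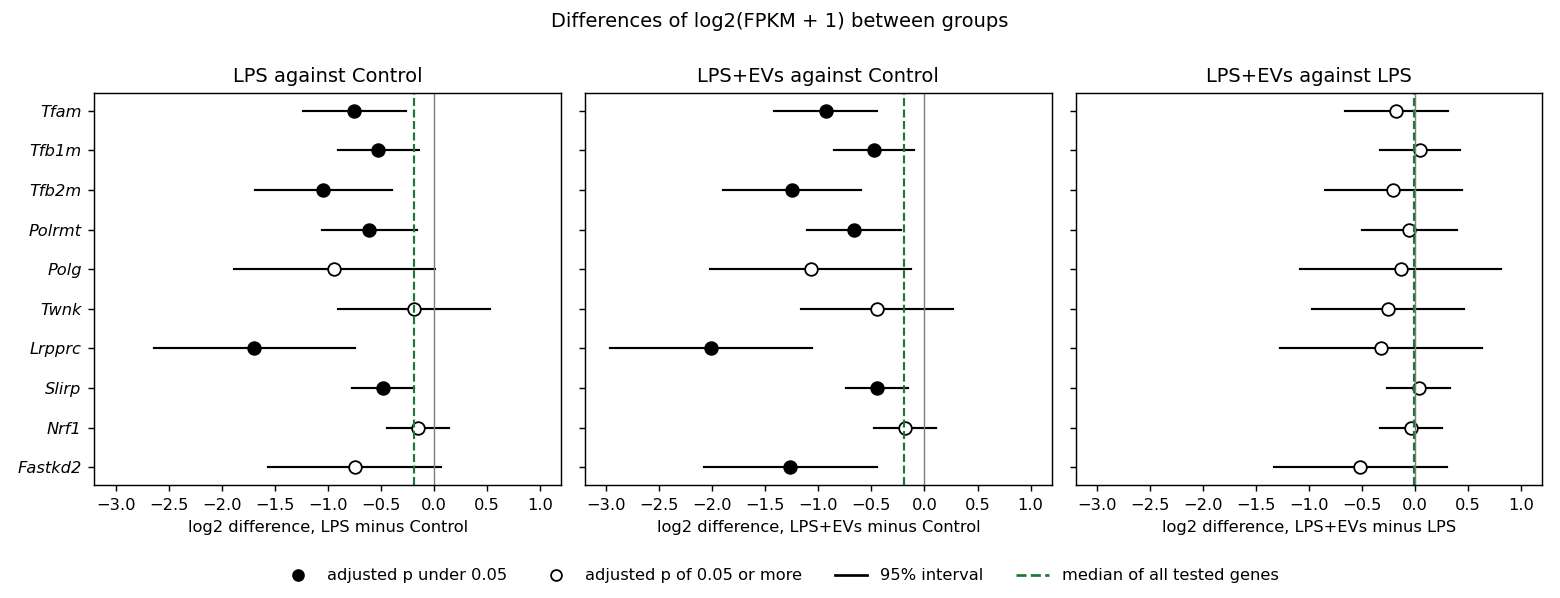
Differences of log2(FPKM + 1) of the 10 genes (down) with their 95% intervals from limma, in 1 panel each for LPS minus Control, LPS+EVs minus Control and LPS+EVs minus LPS; filled points passed an adjusted p of 0.05, and the dashed line is the median of all tested genes. Lrpprc lies farthest below that line against Control, at -2.01 in LPS+EVs and -1.69 in LPS, and every interval of LPS+EVs minus LPS includes 0.

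The vesicle comparison, which asks whether vesicles added to LPS alter these genes, gave no call for any of the 10. None of the 11141 tested genes passed with limma (0.0% in either direction), and 295 had an unadjusted p under 0.05, none of them among the 10; limma-voom on the recovered reads also called 0 genes. The log2 difference of LPS+EVs from LPS was -0.52 (-1.33 to 0.30) for Fastkd2, -0.32 (-1.27 to 0.63) for Lrpprc and -0.26 (-0.97 to 0.46) for Twnk. It was -0.20 (-0.85 to 0.44) for Tfb2m, -0.18 (-0.67 to 0.30) for Tfam and -0.14 (-1.08 to 0.81) for Polg. Polrmt, at -0.06 (-0.50 to 0.39), Nrf1, at -0.04 (-0.33 to 0.26), Slirp, at 0.03 (-0.26 to 0.33), and Tfb1m, at 0.05 (-0.33 to 0.43), were closest to 0. All 10 had a limma adjusted p of 0.999, and their median was -0.16 against -0.01 for all tested genes. Tfam, Lrpprc, Nrf1 and Fastkd2 were lower in LPS+EVs than in LPS in 3 of 3 same-numbered pairs, as were 16.8% of tested genes. In 0 of the 10 did the LPS+EVs libraries all lie below the LPS libraries, which held for 3.48% of tested genes. Intervals reached below a log2 difference of -1 for Lrpprc, Polg and Fastkd2, so differences of that size are within them. These intervals come from the fit without a block, so they include the spread between replicate numbers. Intervals of the blocked fit are not given here. With the block on replicate number, 0 of the tested genes were called in either direction. The limma adjusted p of the 10 then ran from 0.776 (Fastkd2) to 0.974 (Slirp).

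Genes whose levels ran most like 3 of the 10 were found by the root mean square difference of log2(FPKM + 1), each gene centred on its own Control mean, over the 9 libraries. Tfam was nearest to Tmem179b (0.076), Ttc13 (0.087) and Tubgcp3 (0.094), against a median of 0.684 over all tested genes. Lrpprc was nearest to Mrto4 (0.112), Knop1 (0.127) and Utp20 (0.127), against a median of 1.46. Mrto4, Knop1 and Utp20 are annotated as a ribosome maturation factor, a nucleolar protein and a component of the small subunit processome. Nrf1 was nearest to Prr3 (0.067), Trappc11 (0.069) and Smad5 (0.070), against a median of 0.472.

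Of the 65 further genes of the same pathways found in the table, 63 were tested. Of these 1 rose and 27 fell in LPS+EVs, with a median log2 difference from Control of -0.51, and 1 rose and 22 fell in LPS, with a median of -0.43. Of all tested genes 13.5% rose and 30.8% fell in LPS+EVs, and 12.3% rose and 28.7% fell in LPS. The median of all tested genes was -0.19 in both comparisons. Mrm1, Mrm3 and Ppargc1b reached 1 FPKM in fewer than 3 libraries outside Control, and without them 26 of 60 fell in LPS+EVs and 20 of 60 in LPS. Among 13 genes of mitochondrial DNA replication and the nucleoid, 6 fell in LPS+EVs and 4 in LPS. The LPS count was near the 28.7% of all tested genes. Mrpl12, a ribosomal protein also reported to bind POLRMT, was at 9.24, 6.03 and 14.4 FPKM in LPS+EVs, 12.9, 5.79 and 15.5 FPKM in LPS, and 44.0, 38.5 and 32.8 FPKM in Control (log2 -1.92, limma adjusted p = 0.00376 in LPS+EVs, and -1.75, adjusted p = 0.00608 in LPS). Every treated library of Mrpl12 lay below every Control library. Atad3a, a nucleoid-associated membrane ATPase, fell by 1.76 in LPS+EVs (adjusted p = 0.0228) and by 1.49 in LPS (0.0463) on the log2 scale.

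Among 8 genes of mitochondrial nucleotide supply, 1 rose in each comparison. In this list 2 fell in LPS+EVs, against 30.8% of all tested genes, and 3 fell in LPS, against 28.7%. The one that rose was Slc25a36, a pyrimidine nucleotide carrier, with a log2 difference of 0.57 in LPS+EVs (limma adjusted p = 0.0179) and 0.70 in LPS (0.00810). Suclg1, a subunit of succinyl-CoA ligase, had -0.98 in LPS+EVs (0.000997) and -1.06 in LPS (0.000688). Of 4 tested elongation and termination factors, 1 fell in LPS+EVs, Mterf3, a repressor of mitochondrial transcription (-1.31, limma adjusted p = 0.00891), and none in LPS, where Mterf3 had -0.75 (0.0786, and 0.0114 with a block on number).

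RNA processing held 14 tested genes, of which 8 fell in LPS+EVs, against 30.8% of all tested genes, and 7 in LPS, against 28.7%. Without Mrm1 and Mrm3, which were tested only through Control, 7 of 12 fell in LPS+EVs and 6 of 12 in LPS. With numbers 1 and 3 alone, 5 fell in each comparison and 1 rose in LPS. Of all genes in that fit, 29.9% fell in LPS+EVs and 26.8% in LPS. Elac2, the nuclease that cuts the 3′ end of mitochondrial transfer RNAs, was at 6.39, 7.23 and 7.65 FPKM in LPS+EVs, 7.73, 5.71 and 7.44 FPKM in LPS, and 16.1, 16.9 and 15.1 FPKM in Control (log2 -1.08, limma adjusted p = 0.000566 in LPS+EVs, and -1.11, 0.000491 in LPS). Replicate 2 held the lowest Elac2 value of its group in LPS, but not in LPS+EVs or Control. Hsd17b10, a subunit of the enzyme that cuts the 5′ end, had -1.17 in LPS+EVs (0.000418) and -1.21 in LPS (0.000361), and Rpusd4, a pseudouridine synthase, had -1.42 in LPS+EVs (0.00366) and -1.40 in LPS (0.00426).

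RNA stability and decay held 16 tested genes besides the 10, of which 7 fell in LPS+EVs and 5 in LPS. Of all tested genes 30.8% fell in LPS+EVs and 28.7% in LPS, and the LPS count was near that share. Supv3l1, the helicase of the mitochondrial RNA degradosome, had a log2 difference of -0.87 in LPS+EVs (limma adjusted p = 0.00279) and -0.84 in LPS (0.00361). Its partner Pnpt1, the polynucleotide phosphorylase, fell in LPS+EVs (-0.55, 0.0162) and had -0.36 in LPS (0.0798, with 0.0428 under a block on number and 0.0352 with numbers 1 and 3 alone, both past the threshold). Mtres1, a rescue factor of mitochondrial transcription and translation, had -0.60 in LPS+EVs (0.00928) and -0.55 in LPS (0.0154). Genes named for RNA decay and genes named for RNA stability were both among those that fell.

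Among 8 tested nuclear regulators of genes for mitochondrial proteins, 3 fell in each comparison, against 30.8% of all tested genes in LPS+EVs and 28.7% in LPS. In LPS 1 of these 3, Ppargc1b, was tested only through Control. Gabpa, the DNA-binding subunit of GABP, was at 5.58, 5.02 and 4.65 FPKM in LPS+EVs, 5.42, 5.28 and 6.52 FPKM in LPS, and 9.51, 8.59 and 9.34 FPKM in Control (log2 -0.74, limma adjusted p = 0.00227 in LPS+EVs, and -0.59, 0.00666 in LPS). All treated libraries of Gabpa lay below Control. Myc, a growth-promoting factor, was at 5.97, 10.6 and 6.29 FPKM in LPS+EVs, 6.81, 7.07 and 5.05 FPKM in LPS, and 63.0, 56.7 and 60.2 FPKM in Control (-2.86, 2.6e-05 in LPS+EVs, and -3.07, 1.78e-05 in LPS). Pprc1, a coactivator related to PGC-1, fell in LPS+EVs (-1.85, 0.0212) and had -1.41 in LPS (0.0623, and 0.0173 with a block on number). Of the genes with a CCGGAAG match shown above, Tfam, Polrmt and Slirp fell in both comparisons while Polg (which passed under the block) and Twnk did not pass. Of the genes with no match, Lrpprc, Tfb2m and Tfb1m fell in both, Fastkd2 fell in LPS+EVs, and Nrf1 passed in neither.

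**Figure D4:**
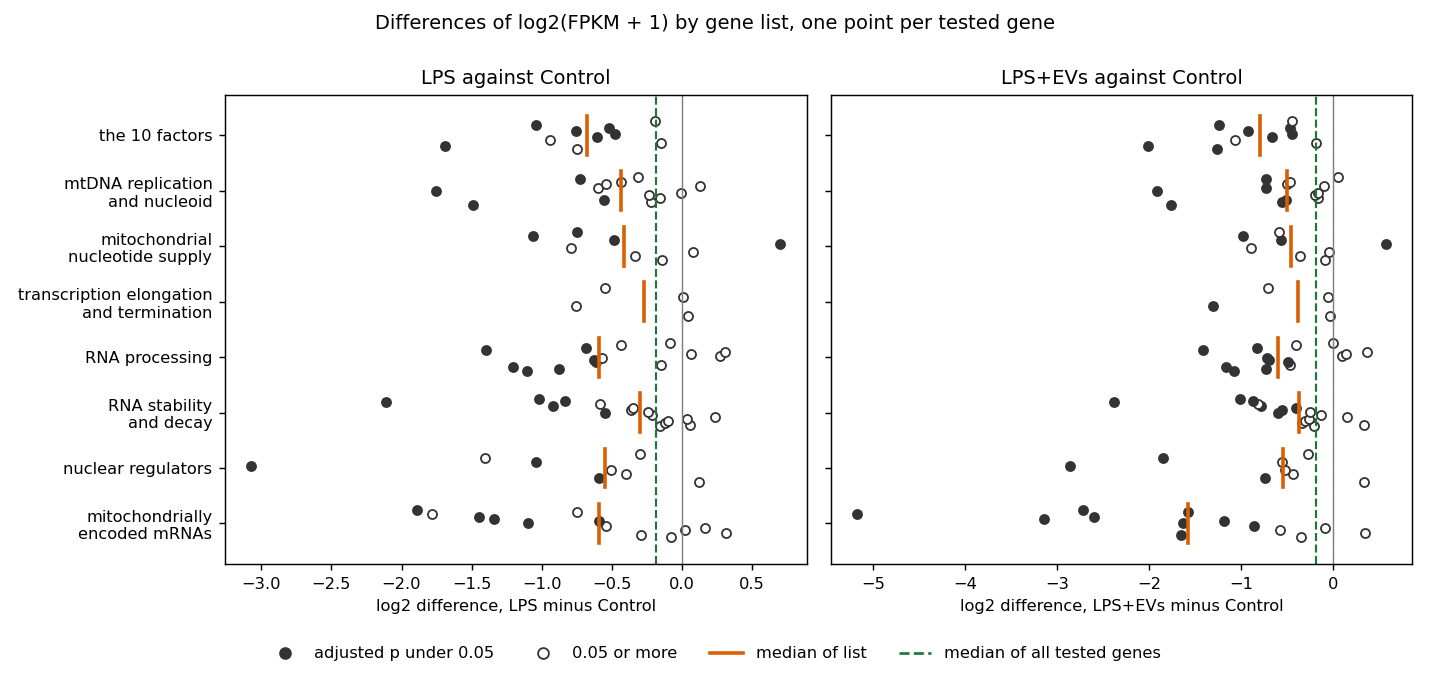
Differences of log2(FPKM + 1) from Control, in LPS and in LPS+EVs, for each tested gene of the 10, of the 6 further lists and of the 13 mitochondrially encoded messenger RNAs; points are genes (filled where the adjusted p was under 0.05), short bars are medians of lists, and the axes of the panels differ in range. Every list's median lies below 0, and the 10 genes' medians are -0.80 in LPS+EVs and -0.68 in LPS.

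The messenger RNAs encoded by mitochondrial DNA were present at very high levels, the 13 together summing to 19847 to 31347 FPKM in LPS+EVs, 25552 to 34307 FPKM in LPS and 26184 to 34408 FPKM in Control. Of the 13, 9 fell in LPS+EVs (median log2 difference from Control -1.58) and 5 in LPS (median -0.59), and none rose. The 13 did not move as one in LPS. The 5 that fell there were ND1, ND2, ND3, ND4 and ND6, and ND4L and ND5 did not pass. In LPS, COX1 (log2 0.32), COX2 (0.02) and COX3 (0.165) lay above 0. ATP6 (-0.08), ATP8 (-0.29) and CYTB (-0.54) lay below 0, and none of these COX, ATP and CYTB genes passed in LPS. Of all tested genes 30.8% fell in LPS+EVs and 28.7% in LPS. ND6, the only messenger RNA transcribed from the light-strand promoter, was at 2.74, 1.70 and 4.79 FPKM in LPS+EVs, 5.29, 3.41 and 10.9 FPKM in LPS, and 27.9, 21.5 and 24.9 FPKM in Control. All treated libraries of ND6 were well below Control (log2 -2.72, limma adjusted p = 0.000816 in LPS+EVs, and -1.89, 0.00480 in LPS). In LPS+EVs against LPS no messenger RNA passed. Of the 13 differences 12 were below 0. An unadjusted limma p under 0.05 was found for 8 of the 13, for none of the 10 nuclear genes and for 295 of the 11141 tested genes. The 13 were not tested as a set and are not independent of one another. RNA carried in by vesicles and RNA made in the cells cannot be told apart in these libraries, and neighbouring mitochondrial genes on overlapping frames or opposite strands can share reads.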

How the data were processed

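RNA from 9 cultures was sequenced (3 each of LPS+EVs, LPS and Control). Per the submitters' processing notes, fastp, HISAT2, HTSeq, R 3.2.0 and the genome build mRatBN7.2 were used; their settings, including the use of strand, are not given in the sources used here. The deposited file holds FPKM made by the authors for 20442 genes, and its symbols were used as given. The unit is not written in the file; the values move in steps of whole reads, from which reads were recovered (to within 0.002 of a whole read; 18833 genes with reads in 2 or more libraries, 100.0% of them), giving totals of 32148519 to 39407116 reads.

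The 11141 genes that reached 1 FPKM in 3 or more libraries were compared on log2(FPKM + 1) with limma 3.58.1 (trend, R 4.3.3), with group means over all 9 libraries, two-sided tests and Benjamini-Hochberg adjustment over all tested genes within each comparison at 0.05. Tables were made with pandas 2.3.3 and numpy 2.4.6 under Python 3.11.15, figures with matplotlib 3.10.9, and the fit was tested on simulated data. Same-numbered libraries deviated from their group means together (correlations 0.284 to 0.863 in 9 pairs, against -0.745 to 0.426 in 18 differently numbered pairs). The numbers were therefore taken to pair the samples, as a property of the data. The main fit has no block. Blocked values are given for the 10 genes where they change a call and, as a range, for LPS+EVs against LPS. With the block, 35 further pathway genes fell in LPS+EVs and 33 in LPS, where 37.4% and 35.5% of all tested genes fell. Of the 13 mitochondrial messenger RNAs, 10 then fell in LPS+EVs and 7 in LPS. Dendritic cell markers then had 3 rises and 2 falls in LPS+EVs, and 2 rises and 3 falls in LPS. The 17 alternatives were 0.1 FPKM added, no filter, median-of-ratios scaling, the replicate block with and without that scaling, the 6 compared libraries alone, numbers 1 and 3 alone, limma-voom on recovered reads with median-of-ratios scaling, and each of 9 libraries left out.

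The 10 genes and all lists were chosen with earlier results of these data known. All 10 genes are named. Of each other list, up to 4 genes with the smallest p in a comparison could be named. Fanci, Mrpl43, Alkbh1 and Snw1, which overlap 1 of the 10 each, are given with values that were seen first. Genes tested only through Control were also named after their values were seen. RT1-Bb, Itgax, Flt3, Clec9a, Xcr1, Zbtb46, Irf4 and Irf8 are listed cell type markers. RefSeq (GRCr8) gave overlaps and promoter windows, for all 10 genes; its build differs from that of the values. Of the pathway lists Mterf2 and Ppargc1a were too low to test, and Dna2 was not analysed here. Marker lists had 1 rise and no fall in LPS+EVs and in LPS for dendritic cells (10 tested), 2 rises and 4 falls in each for macrophages and monocytes (8), 1 rise with 2 falls in LPS+EVs and 3 in LPS for neutrophils (5), 1 rise and 1 fall in each for erythroid cells (2), 0 of 6 for stroma, and 14 falls of 14 in each for cell division, 7 of which (Ccna2, Ccnb1, Ccnb2, Kif20a, Tk1, Top2a and Ube2c) were tested only through Control, reaching 1 FPKM in fewer than 3 other libraries; the same holds for Cxcr2 and Csf3r among the neutrophil markers.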

Additional observations from a re-analysis of the deposited data

How the results depend on the processing

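Over the 17 alternatives, the 10 genes' values against Control kept their direction and their side of the threshold 132 times in LPS+EVs and 129 times in LPS; in LPS+EVs a call was lost 31 times and gained 6 times and the sign turned 1 time, and in LPS a call was lost 32 times and gained 4 times and the sign turned 5 times. Lrpprc kept its calls throughout, and Tfam and Tfb2m kept theirs in LPS+EVs. The number of the 10 genes called in LPS+EVs was 4 with no filter on low values and 3 to 9 with 1 library left out; in LPS it was 3 with median-of-ratios scaling and 1 to 6 with 1 library left out (1 without Control replicate 1 or 3). The cause was not tested. With 1 library left out, calls among all genes numbered 3239 to 5776 in LPS+EVs and 2775 to 4526 in LPS, and calls among the further pathway genes 14 to 34 in LPS+EVs and 12 to 27 in LPS. In LPS+EVs against LPS all-gene calls were 0 to 1 (1 without LPS replicate 2) and the 10 genes gave 0 to 0. With the replicate block 8 of the 10 genes were called in each comparison with Control (37.4% of tested genes fell in LPS+EVs and 35.5% in LPS under it), the additions being Polg in LPS+EVs, and Polg and Fastkd2 in LPS; it changed no other call among the 10. Sign turns against Control were Nrf1 in LPS+EVs (0.005 with limma-voom), Nrf1 in LPS (0.021 with median-of-ratios scaling, with or without the block, and 0.03 with limma-voom) and Twnk in LPS (0.133 with numbers 1 and 3 alone; -0.42 to 0.211 with 1 library left out). In LPS+EVs against LPS the sign turned 14 times, only with 1 library left out, over ranges of -0.325 to 0.045 for Tfam, -0.084 to 0.156 for Tfb1m, -0.545 to 0.045 for Tfb2m, -0.228 to 0.095 for Polrmt, -0.6 to 0.167 for Polg, -0.771 to 0.06 for Lrpprc, -0.015 to 0.125 for Slirp and -0.095 to 0.016 for Nrf1. The fewest reads behind a value were 86, for Fastkd2; how much of the interval widths is counting error was not tested.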
